A study of Mus musculus with 15 samples.

Results

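The 300 predicted genes described here were the best expressed rows of the count table whose whole symbol is Gm followed by digits. They were selected on their mean level, at least 20 CPM, counts scaled to a fixed library total, over all 15 columns. Of 40402 genes in the table, 14765 had such a symbol, and 9645 of these had a count in any column. Gm26917 was left out of the group, 304 others reached the threshold, and the 300 highest were kept. Just inside were Gm51742 at a mean of 20.32 CPM, Gm30215 at 20.32 CPM and Gm40636 at 20.29 CPM. Just outside were Gm46605 at 20.29 CPM, Gm54181 at 20.19 CPM and Gm13032 at 20.11 CPM. Because the mean ran over every condition, a gene could enter through 1 condition alone, and 176 Gm genes reached 20 CPM in each condition on its own.

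RNA was sequenced from 4T1 cells, a mouse mammary carcinoma cell line that the labels give as wild type, in 5 conditions. Cells were untreated, or received blackberry extract (BLA), blueberry extract (BLU), or gold nanoparticles made with blackberry (BLA-A) or with blueberry (BLU-A). Each condition had 3 columns. The sequencing report among the study's materials gives 1 set of raw reads per condition and 3 subsets drawn from it, although a general statement in the methods calls replicates independent. The spread between the 3 columns was smaller than sampling noise, so each set of 3 was counted as 1 library and no test sets 1 condition against 1 other. Column totals ran from 25611976 to 26957141 counts. Labels give every column a batch date of its own, so batch and condition cannot be told apart. Of 10 epithelial marker genes, 8 reached 1 CPM in a library, and Krt18, a keratin of simple epithelia, was the highest of them at 623 CPM. Krt5 was under 0.1 CPM. Of 10 macrophage markers, 5 reached 1 CPM, with Cd14 the highest at 18.4 CPM and Lyz2 under 0.1 CPM. The macrophage markers summed to between 19.6 and 27.5 CPM per library, highest in BLA-A. Fibroblast markers summed to between 90.4 and 105 CPM, with Pdgfra the highest at 103 CPM and Col3a1 and Lum under 0.1 CPM.

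A Gm symbol is a placeholder given to a mouse gene that was predicted by an annotation pipeline and has not yet received a name for its function. Many are long noncoding RNAs, transcripts without a long reading frame that often lie on the strand opposite a protein-coding gene or inside one of its introns. Some are pseudogenes, copies of a coding gene that have lost its reading frame. In this table reads were counted over the whole gene, introns included, with a forward-strand setting. Whether the library kit marks the strand is not given in the sources used here, so reads of a gene and of its opposite-strand partner cannot be told apart.

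By annotation, 264 of the 300 were long noncoding, 11 protein coding, 3 pseudogenes and 1 of another type, and 21 were in neither annotation used. By symbol, 190 could be placed on GRCm39 in GENCODE M39, spread over 20 chromosomes. Of these, 168 overlapped another gene on the opposite strand (88.4%), 6 overlapped a gene on the same strand alone, and 16 overlapped none. Among 8399 placed Gm genes with a mean under 1 CPM, 36.4% overlapped an opposite-strand gene. The share was therefore larger in the well expressed genes, a difference given without a test. Of the 110 not placed, 73 overlapped a gene in the RefSeq table of the older build GRCm38.p6. The strands were opposite in 54 of those 73 and not known in 19.

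3 stretches of sequence are shown because they are near copies of one another in genes that were far lower in BLA-A than in untreated cells, described further on. They come from introns of Gm19951, of Cmss1, a gene named for a ribosomal small subunit protein, and of Tmtc2, which encodes a membrane protein of the endoplasmic reticulum. Reads from introns entered the counts. The Gm19951 stretch lies at chr12:99611541-99611780 on the plus strand, the strand of that gene. The Cmss1 copy lies at chr16:57211580-57211820 on the minus strand, also the strand of its gene. The Tmtc2 copy lies at chr10:105074014-105074252 on the plus strand, opposite to Tmtc2. All coordinates are GRCm39, and capitals mark the 223 bases that were equal in all 3 copies.
Gm19951: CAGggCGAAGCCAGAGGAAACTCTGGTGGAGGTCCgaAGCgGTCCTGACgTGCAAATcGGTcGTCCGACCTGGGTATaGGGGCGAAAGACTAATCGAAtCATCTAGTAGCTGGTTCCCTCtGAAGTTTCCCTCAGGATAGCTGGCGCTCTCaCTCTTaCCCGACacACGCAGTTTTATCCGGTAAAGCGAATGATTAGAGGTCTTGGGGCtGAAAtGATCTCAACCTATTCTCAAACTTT
Cmss1: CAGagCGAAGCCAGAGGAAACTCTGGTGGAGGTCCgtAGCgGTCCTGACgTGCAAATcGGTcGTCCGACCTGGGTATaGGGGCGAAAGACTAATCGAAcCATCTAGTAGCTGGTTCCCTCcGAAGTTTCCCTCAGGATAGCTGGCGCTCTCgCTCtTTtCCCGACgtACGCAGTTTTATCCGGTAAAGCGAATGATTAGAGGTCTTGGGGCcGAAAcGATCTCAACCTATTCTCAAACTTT
Tmtc2: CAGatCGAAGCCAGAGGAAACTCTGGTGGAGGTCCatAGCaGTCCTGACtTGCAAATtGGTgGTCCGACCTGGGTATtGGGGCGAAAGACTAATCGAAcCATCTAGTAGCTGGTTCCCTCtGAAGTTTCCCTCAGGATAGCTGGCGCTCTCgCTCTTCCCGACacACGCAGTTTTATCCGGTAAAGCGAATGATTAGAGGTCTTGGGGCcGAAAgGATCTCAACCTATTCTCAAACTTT
These lines are part of a longer match of 564 aligned bases between Gm19951 and Cmss1, at 96.3% identity. The 563-base stretch of Gm19951 had 34 matches in the genome at an e-value limit of 1e-10, itself included. Ribosomal RNA sequence was not used here, so the stretch was not compared with it.

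Promoter windows, 250 bases before to 50 after a gene start on GRCm38.p6 from RefSeq, matched 194 of the 300 genes by symbol. Windows of 2 genes are shown because both genes were higher in all 4 treatments. Capitals mark matches to any of 9 motifs searched on both strands.
Gm52303, chr17:62777992-62778291, strand +: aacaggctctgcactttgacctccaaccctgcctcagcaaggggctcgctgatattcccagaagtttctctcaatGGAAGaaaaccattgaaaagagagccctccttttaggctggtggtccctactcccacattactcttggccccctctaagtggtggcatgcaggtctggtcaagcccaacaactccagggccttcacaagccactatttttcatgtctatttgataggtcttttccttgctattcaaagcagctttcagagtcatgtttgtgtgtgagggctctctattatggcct
Gm33934, chr6:101271686-101271985, strand +: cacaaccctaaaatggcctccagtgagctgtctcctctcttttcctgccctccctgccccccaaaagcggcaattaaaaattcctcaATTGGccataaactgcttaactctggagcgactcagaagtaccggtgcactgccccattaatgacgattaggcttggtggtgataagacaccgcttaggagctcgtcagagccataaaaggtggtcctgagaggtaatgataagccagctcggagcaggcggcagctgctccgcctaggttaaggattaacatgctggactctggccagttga
The Gm52303 window held 1 GGAAG (ETS) and the Gm33934 window 1 CCAAT (NF-Y, printed as its reverse complement). GGAAG stood in 76.9% of the 281 windows of the group and in 71.4% of all 32851 windows, and CCAAT in 37.4% of both. GGGCGG, the GC box, stood in 20.6% of the group's windows and 35.7% of all. GCGTG, the core of the dioxin response element, stood in 21.7% against 32.4%, and CACGTG, the E-box, in 3.56% against 7.15%. The basal promoter motif TATAAA stood in 13.5% against 13.6%. The AP-1 motif TGACTCA stood in 5.34% against 5.2%, and the core of the antioxidant response element, TGACNNNGC, in 10.3% against 12.4%. The cyclic AMP response element TGACGTCA stood in 0.712% against 1.79%. A CCAAT match can overlap a TATAAA or GGAAG match in the same window. These are shares of letters found, and several windows can belong to 1 gene.

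Levels below are CPM after normalization by the trimmed mean of M-values (TMM), 1 value per library. They are not per length, so an order between genes is an order of counts. The 300 genes together took 2.32% of all counts in untreated cells, 2.41% in BLA, 1.97% in BLA-A, 2.45% in BLU and 2.5% in BLU-A. Their median level was 31.6 CPM in untreated cells and lay between 35.3 and 38.7 CPM in the treated libraries. The excluded Gm26917 alone took 4.55% to 7.84% of counts, highest in BLA-A. Of the 300, 100 had a mean of at least 50 CPM, 48 of at least 100 CPM, and 3 of at least 1000 CPM. The 10 highest genes held 34.9% to 39% of the group's summed level in each library.

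Gm40892 was the highest of the group. It spans chr12:92852065-92858424 on the minus strand (GRCm39, like every gene position below) and overlaps no other gene. GENCODE types it as long noncoding and RefSeq as protein coding. It stood at 2206 CPM in untreated cells, 1890 in BLA, 1640 in BLA-A, 2184 in BLU and 1994 in BLU-A. The untreated and BLU libraries were the highest and BLA-A the lowest, and no fold change passed 1 on the log2 scale. Per kilobase of span its mean was 313 CPM. Gm14681, a processed pseudogene of 0.411 kilobases at chrX:65822048-65822458, reached 749 CPM per kilobase and was thus higher by length. Unscaled by length it stood at 404 CPM in untreated cells, 336 in BLA, 136.5 in BLA-A, 324 in BLU and 319 in BLU-A, lowest in BLA-A.

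Gm38733 followed in counts. In RefSeq it overlaps Fbxl18, which encodes a ubiquitin ligase subunit, on the opposite strand. It stood at 2000 CPM in untreated cells, 1315 in BLA, 2321 in BLA-A, 1653 in BLU and 1599 in BLU-A. Fbxl18 was far lower, between 16.3 and 26.1 CPM. Gm36876, a long noncoding gene at chr11:108862813-108925550, came next at 1380 CPM in untreated cells, 1652 in BLA, 51.9 in BLA-A, 1235 in BLU and 833 in BLU-A. The BLA-A library lay far below the other 4 libraries.

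Gm51785 lies at chr10:120295949-120305530, wholly inside Hmga2 and on its opposite strand. Hmga2 encodes an architectural chromatin protein that is active in embryos and re-expressed in many tumours. Gm51785 stood at 301.9 CPM in untreated cells, 888 in BLA, 547 in BLA-A, 860.2 in BLU and 705 in BLU-A, so every treated library was above the untreated one. Hmga2 stood at 1054 CPM in untreated cells and 2642 in BLA, 1838 in BLA-A, 2520 in BLU and 2063 in BLU-A. Gm49890, at chr4:88828091-88857258 around Mir31 on the same strand, was lowest in untreated cells too, with 263 CPM there and 355 to 468 CPM in the treated libraries.

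Gm30368 overlaps Lgals1, the gene of the lectin galectin-1, on the opposite strand at chr15:78804490-78812528. It stood at 802 CPM in untreated cells, 445 in BLA, 727 in BLA-A, 514 in BLU and 756 in BLU-A. Lgals1 stood at 1488 CPM in untreated cells, 849.5 in BLA and 2743 in BLA-A, so its highest library was another one. Gm49085 stood between 419.5 and 558 CPM. Gm54221 stood between 410 and 716.5 CPM, highest in BLA-A. Gm53756 stood at 383 CPM in untreated cells, 387 in BLA, 5.32 in BLA-A, 299 in BLU and 252 in BLU-A. Neither Gm54221 nor Gm53756 was in the annotations used here.

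**Figure D1:**
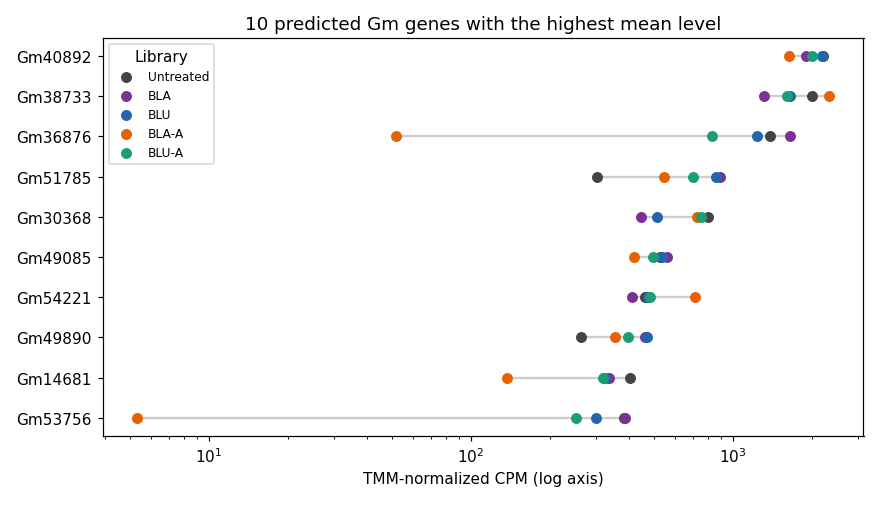
TMM-normalized CPM (log axis) of the 10 genes with the highest mean, 1 point per library, with a grey line from the lowest to the highest library. Gm36876 and Gm53756 have their BLA-A point, at 51.9 and 5.32 CPM, far to the left of the other libraries.

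The first comparison asked how each treatment differed from untreated cells. Fold changes are log2 values on TMM CPM plus 0.5, and changes over 1 in size were counted. In BLA, 45 of the 300 genes were higher and 4 lower. The same rule counted 7.91% of all 17594 genes tested as higher and 8.51% as lower, and 3.16% and 1.26% of the 7637 genes with a mean of at least 20 CPM. The group's share was 15% higher and 1.33% lower. In BLU, 36 of the 300 genes were higher (12%) and 0 lower, against 5.64% and 4.62% of all genes tested and 1.79% and 0.249% of those at 20 CPM or more. In BLU-A, 18 were higher (6%) and 0 lower, against 3.39% and 4.49% of all and 0.602% and 0.0524% of those at 20 CPM or more. With 1 library per condition these are counts of fold changes and carry no test.

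In BLA-A, 29 genes were higher and 29 lower, 9.67% each. The background was 8.55% higher and 12.3% lower over all genes tested, and 7.06% and 4.23% at 20 CPM or more. This split depended on the scaling. With total counts alone it was 15 higher and 39 lower, with DESeq2 size factors 33 and 28, and with Gm26917 taken out before TMM 38 and 24. Scaling by total counts put the median of all genes tested in BLA-A at -0.18, and relative to that median the group's own median of -0.12 was slightly higher. The median log2 fold change of the group under TMM was 0.17 in BLA, 0.07 in BLA-A, 0.08 in BLU and 0.06 in BLU-A. Over all genes tested it was -0.01, -0.01, -0.01 and 0.00 in that order. The 7204 genes at 20 CPM or more with neither a Gm nor a Rik symbol had medians of -0.023, 0.096, -0.015 and -0.003. Beside those, the group's median was lower in BLA-A and higher in the other treatments.

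**Figure D2:**
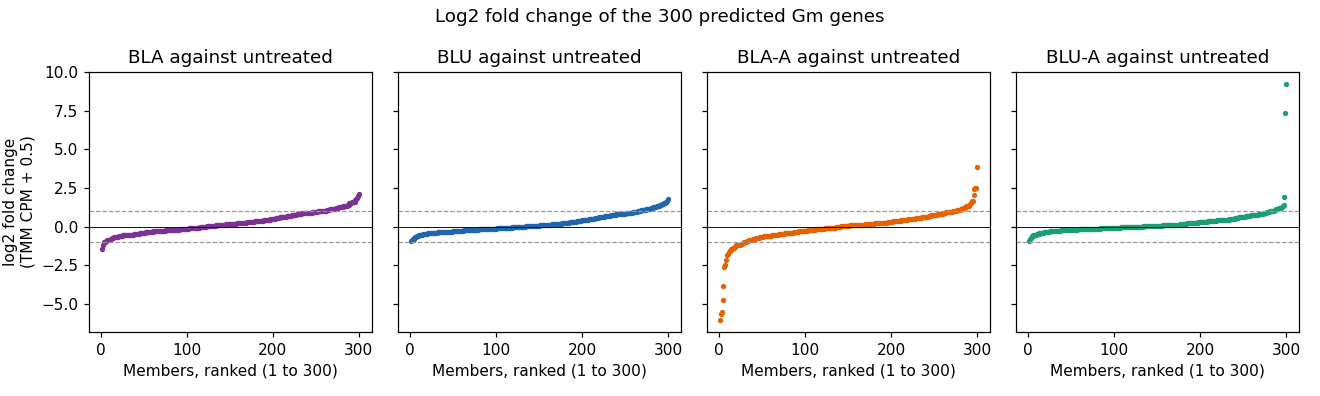
Log2 fold change of each of the 300 genes against untreated cells, ranked from lowest to highest within each treatment, with dashed lines at -1 and 1. The BLA and BLU curves end above 1 with few points under -1, BLA-A has a tail down to -6.04, and BLU-A has 2 points above 7.

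Rows with a Rik symbol, another class of provisional names, were counted by the same rule. Of 128 at 20 CPM or more, 13 were higher in BLA (10.2%) and 9 in BLU (7.03%). In BLA-A 8 were higher (6.25%) and 9 lower (7.03%). In BLU-A 7 were higher (5.47%) and 0 lower. Of 7204 genes with any other symbol, 183 (2.54%) were higher in BLA and 92 (1.28%) in BLU. In BLA-A 502 of them were higher (6.97%) and 284 lower (3.94%). In BLU-A 21 of them were higher (0.292%) and 4 lower (0.0555%). Among 34 named long noncoding RNAs tested, 5 were higher (14.7%) and 2 lower (5.88%) in BLA, and 3 higher (8.82%) and 0 lower in BLU. In BLA-A 5 were higher (14.7%) and 3 lower (8.82%). In BLU-A 2 were higher (5.88%) and 0 lower. The 2 lower in BLA were Snhg8 and Snhg3, at -1.13 and -1.01. The largest BLA rise of the 34 was that of Neat1. Neat1, the RNA scaffold of paraspeckles, stood at 193 CPM in untreated cells, 668.5 in BLA, 242 in BLA-A, 476 in BLU and 404 in BLU-A. The classes were not tested against each other.

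5 genes were higher past the fold in every treatment, which is how they were chosen. The share of all genes tested that did so is not given here, so the count does not set the group apart. All 4 comparisons share the untreated library. The 5 were Gm52303, Gm51671, Gm33934, Gm30106 and Gm53812. Gm52303 stood at 17.8 CPM in untreated cells, 72 in BLA, 50.2 in BLA-A, 57.2 in BLU and 48.3 in BLU-A, log2 fold changes of 1.98, 1.47, 1.66 and 1.41 in that order. It overlaps Efna5, the gene of an ephrin ligand, on the opposite strand. Efna5 had log2 fold changes of 1.24, 0.84, 1.17 and 0.75. Gm51671 stood at 74.3 CPM in untreated cells, 263 in BLA, 168 in BLA-A, 224 in BLU and 183 in BLU-A.

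Gm33934, at chr6:101248941-101268498 inside Pdzrn3 on the opposite strand, stood at 10.4 CPM in untreated cells, 38 in BLA, 23.6 in BLA-A, 27.2 in BLU and 24.1 in BLU-A. Pdzrn3, a ubiquitin ligase gene, stood at 126.5 CPM and then at 203 to 263 CPM. Gm30106 overlaps the kinase gene Mast4 and stood at 19.5 CPM, then 59.3 with BLA, 40.1 with BLA-A, 51.9 with BLU and 43.4 CPM with BLU-A. Gm53812, in neither annotation, stood at 16.7 CPM, then 49, 34, 42.7 and 36.9 CPM in that order. The untreated library was the lowest in each of the 5 by the way they were chosen, and BLA was the highest. Gm52330, which overlaps the gene Arhgap26, had the largest fold change of the group in BLA and in BLU. It stood at 10.8 CPM in untreated cells, 49.1 in BLA, 21.1 in BLA-A, 38.1 in BLU and 27.8 in BLU-A. Arhgap26 stood at 130 CPM, then 321, 174, 294 and 226 CPM. In untreated cells Gm52303, Gm33934, Gm53812 and Gm52330 lay below the CPM threshold of the group, and Gm30106 lay close to it. Those below it entered the group through treated libraries, so their rise was favoured by the choice of genes.

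**Figure D3:**
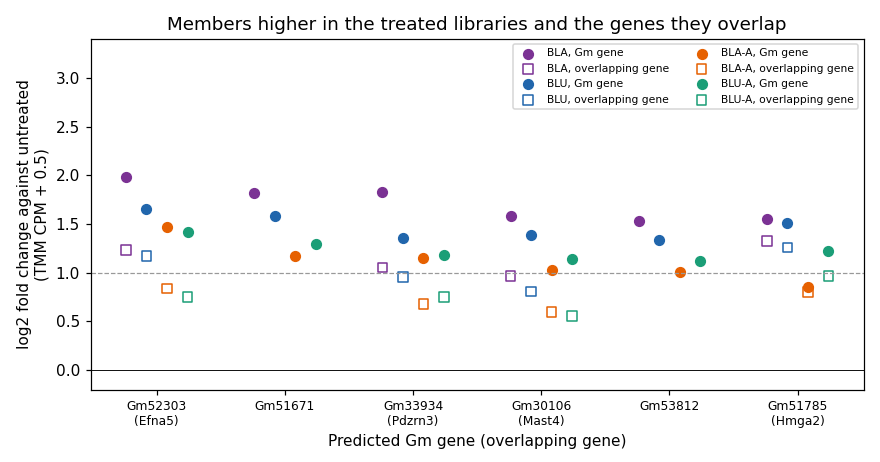
Log2 fold change against untreated cells for the 5 genes higher in every treatment and for Gm51785 (filled circles), beside the overlapping gene where one is shown (open squares). Every point lies above 0, and in Gm52303, Gm33934, Gm30106 and Gm51785 the Gm gene lies above its overlapping gene in all 4 treatments.

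The overlapping genes of those higher in BLA were long. Of 16 placed genes that were higher in BLA and had an opposite-strand partner, 14 had a partner spanning at least 100 kilobases (87.5%), against 40 of the other 152 (26.3%). In BLU the counts were 10 of 12 and 44 of 156, and in BLA-A 6 of 17 (35.3%) and 48 of 151 (31.8%). All 16 partners in BLA and all 12 in BLU had fold changes above 0, with medians of 0.79 and 0.94. Of the tested partners, 14 of 16 in BLA-A and 4 of 6 in BLU-A were above 0, with medians of 0.70 and 0.64. Outside the group, of 1266 genes with other symbols that span at least 100 kilobases, 10.9% were higher in BLA, against 0.728% of 5909 shorter ones. In BLA-A these shares were 2.37% and 7.87%. The median log2 fold change in BLA was 0.445 in those long genes and -0.104 in the shorter ones. Span was looked at after the values were seen and is given as a description.

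Few genes were lower past the fold outside BLA-A. The lowest fold change in BLA was that of Gm12854, a processed pseudogene at chr4:115924465-115924761 opposite Uqcrh, a subunit gene of respiratory complex III. It stood at 29.7 CPM in untreated cells, 10.5 in BLA, 28.6 in BLA-A, 21 in BLU and 24.2 in BLU-A. Gm36787, opposite 1810055G02Rik, stood at 47.4 CPM in untreated cells and 21 in BLA, and 1810055G02Rik stood at 48.4 and 24.4 CPM. Gm2788, opposite the cell cycle gene E2f8, stood at 67.5 CPM in untreated cells and 33.2 in BLA. E2f8 stood at 249.5 and 143 CPM.

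Opposite-strand partners could be read for 162 placed genes. In 28 pairs the Gm gene spans at least 90% of the partner's exonic bases, and there the median ratio of Gm level to partner level was 1.01, with quartiles of 0.744 and 1.13. The ratio lay between 0.8 and 1.25 in 12 of the 28 (42.9%). In 55 pairs where the Gm gene spans under 10% of the partner's exonic bases the median ratio was 0.134, and 4 (7.27%) lay in that range. In the latter pairs most of the partner's exonic bases lie outside the Gm gene.

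3 pairs show the near-equal values, and they were chosen after their values were seen. Gm15441, at chr3:96462168-96474162, covers the whole of Txnip, the thioredoxin-interacting protein gene. Gm15441 stood at 55.4 CPM in untreated cells, 93.5 in BLA, 25.2 in BLA-A, 61.1 in BLU and 58.8 in BLU-A. Txnip stood at 53.9, 92.5, 25.5, 60.5 and 56.9 CPM in the same order of libraries. The 2 rows thus held nearly the same value in each library.

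Gm40121, at chr3:107603741-107763874, covers Csf1, the gene of the macrophage growth factor. Gm40121 stood at 137 CPM in untreated cells, 116.5 in BLA, 279 in BLA-A, 131 in BLU and 134 in BLU-A. Csf1 stood at 131, 107.5, 274, 122 and 126 CPM. Gm40262, opposite the metalloreductase gene Steap2 at chr5:5713647-5764085, stood at 206 CPM in untreated cells and 342 in BLA-A, and Steap2 at 205 and 338 CPM.

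Fold changes of the pairs ran close together too. In the 28 pairs with high coverage the median absolute difference between the log2 fold changes of the Gm gene and its partner was 0.11 in BLA, 0.10 in BLA-A, 0.09 in BLU and 0.05 in BLU-A. In the 55 pairs with low coverage it was 0.32, 0.42, 0.30 and 0.21 in that order. Over the 162 pairs Pearson's r between the log2 fold changes of the 2 genes was 0.739 in BLA, 0.664 in BLA-A, 0.686 in BLU and 0.208 in BLU-A. The median absolute difference over these pairs was smallest in BLU-A, at 0.124. In BLU-A r was 0.749 in the pairs with low coverage, 0.195 in those with high coverage and 0.0554 in the rest. Gm41095 and Gm29677 are among the pairs, at 9.25 and 7.35 in BLU-A beside -0.16 and -0.06 in their partners. Their part in the BLU-A r was not tested. The points share libraries and in part the same bases, so these are descriptions.

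**Figure D4:**
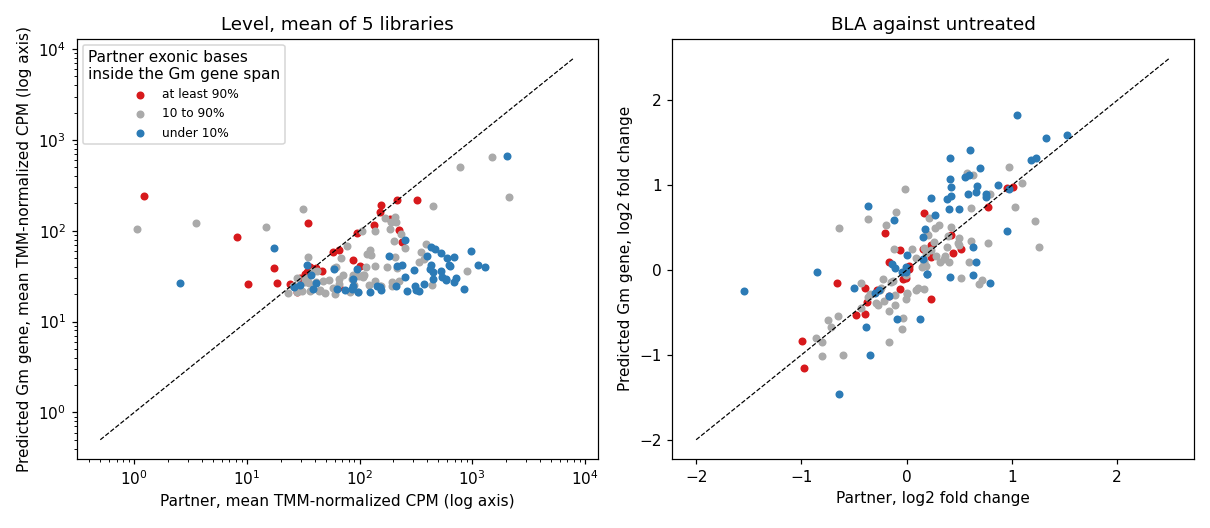
Left, mean TMM-normalized CPM of 162 Gm genes against that of the opposite-strand partner, both axes log; right, their log2 fold changes in BLA. Points are coloured by the share of the partner's exonic bases inside the Gm gene, the dashed line marks equal values, and red points (at least 90%) have a median ratio of 1.01.

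The BLA-A library stood apart from the others. In BLA-A 5 genes of the group were under 10% of their untreated level. Beside Gm53756 and Gm36876 these were Gm19951, Gm30821 and Gm39429. The share of all genes tested that lay under that level is not given here. Gm19951, at chr12:99609334-99613482, stood at 101 CPM in untreated cells, 112 in BLA, 1.57 in BLA-A, 85.5 in BLU and 53.6 in BLU-A. The BLA-A value came from 36 counts, with an exact Poisson interval of 1.09 to 2.15 CPM for counting error. Gm30821, on chromosome 18, stood at 120, 117, 2.13, 93.2 and 80.3 CPM in the same order. Gm39429, at chr9:110095706-110111667, contains the whole of Mir6236 on the opposite strand and stood at 107, 145, 7.18, 104 and 61.5 CPM. Mir6236 stood at 12.5 CPM in untreated cells and 2.55 in BLA-A. In all 5, BLU-A was the second lowest library and the other 3 lay above it.

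The stretch printed above links one of these genes to rows outside the group. Of 13 other tested genes that hold a match to the Gm19951 stretch, 6 were below a log2 fold change of -1 in BLA-A, beside 12.3% of all genes tested. Cmss1 stood at 1625 CPM in untreated cells and 190.1 in BLA-A, Filip1l, which holds the same copy, at 1342 and 149.7 CPM, and Tmtc2 at 165 and 2.33 CPM. Afg2a, Arhgap21, Hacd1 and Jarid2 also hold a match and lay between -0.44 and 0.23. The list was drawn up after the values were seen and has no test. The mitochondrial ribosomal RNAs were also lower in BLA-A, mt-Rnr1 at 415 CPM in untreated cells and 3.52 in BLA-A and mt-Rnr2 at 556.5 and 10.8 CPM. Rn7sk, a small nuclear RNA that holds back transcription elongation, was higher there, at 91.6 and 3477 CPM, as was Rmrp, the RNA of a ribonuclease, at 64.5 and 899.9 CPM. Ribosomal RNA was removed from the libraries by enzyme, and its part in these values was not tested.

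The highest fold changes in BLA-A were those of Gm40009, Gm30215 and Gm52490. Gm40009 stood at 12.8 CPM in untreated cells, 8.85 in BLA, 191.5 in BLA-A, 6.56 in BLU and 11.1 in BLU-A. Gm30215 stood at 8.84, 15.2, 53.4, 17.5 and 10.7 CPM in the same order. Gm52490 stood at 13.7, 9.17, 78.5, 13.5 and 13.3 CPM. It overlaps Tinagl1, which encodes a secreted matrix protein and stood at 113 CPM in untreated cells and 370 in BLA-A. Gm40009, Gm30215 and Gm52490 each lay below the CPM threshold of the group in every library but BLA-A. They therefore entered the group through BLA-A, and their high value there was fixed by the choice of genes.

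In BLU-A 2 genes stood far above every other library. Gm41095, at chr14:14022727-14090697 on the minus strand, stood at 0.501 CPM in untreated cells, 1.45 in BLA, 0.36 in BLA-A, 0.242 in BLU and 610 in BLU-A. The values outside BLU-A came from 7 to 39 counts. Its log2 fold change was 9.25, and its opposite-strand partner Cfap20dc, a cilium gene, stood at 3.68 CPM in BLU-A and 4.17 in untreated cells. Gm29677, on chromosome 18, stood at 6.9 CPM in untreated cells, 6.17 in BLA, 0.72 in BLA-A, 3.67 in BLU and 1205 in BLU-A. It covers Mc2r, the corticotropin receptor gene, which stood at 1.2 CPM in BLU-A. Both genes entered the group through BLU-A alone. Gm53310 had the next highest fold change, at 14.1 CPM in untreated cells and 26.5, 16.2, 29.1 and 55.9 CPM with BLA, BLA-A, BLU and BLU-A.

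**Figure D5:**
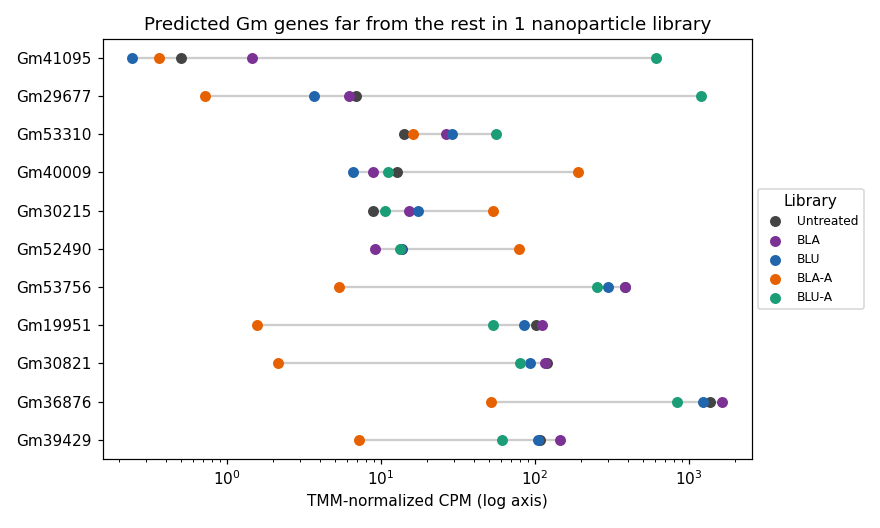
TMM-normalized CPM (log axis) of 11 genes that lie far from the rest in BLA-A or BLU-A, 1 point per library. Gm41095 reaches 610 CPM and Gm29677 1205 CPM in BLU-A, and the 5 lowest rows have BLA-A on the left, from 1.57 to 51.9 CPM.

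The 5 genes named next had the smallest range of fold changes over the treatments. Gm54291, opposite the signal recognition particle gene Srp72 at chr5:77108327-77151020, stood at 147 CPM in untreated cells and 129 to 136 CPM in the treated libraries. Gm52552, opposite the signalling adaptor gene Traf1, stood at 25.3 CPM and then at 37.4 to 41.1 CPM. Gm12992, opposite the splicing factor gene Srsf4, stood at 65.8 CPM and then at 49.4 to 54.6 CPM. Gm54097, opposite Dido1, stood at 86.4 and then at 70.7 to 78.8 CPM, and Gm52102, opposite Zmiz1, at 56 and then at 52.5 to 59.7 CPM. In Gm54291, Gm52552, Gm12992 and Gm54097 every treated library lay on one side of the untreated one, and in Gm52102 they lay on both sides.

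The second comparison set each nanoparticle beside the extract of the same berry. BLA-A against BLA had 29 of the 300 genes higher and 53 lower, shares of 9.67% and 17.7%, against 11.6% and 13% of all genes tested. At 20 CPM or more, the 7204 genes with other symbols had 10.7% higher and 4.08% lower. The 128 Rik rows had 7.03% and 17.2%. This split was 23 and 69 with total counts, 31 and 46 with DESeq2 size factors, 33 and 45 with Gm26917 left out before TMM, and 32 and 45 with no filter. BLU-A against BLU had 2 higher (0.667%), Gm41095 and Gm29677, and 0 lower, against 2.89% and 3.8% of all genes tested. Of the genes with other symbols at 20 CPM or more, 0.194% were higher and 0.0278% lower. Gm41095 and Gm29677 both entered the group through BLU-A. Doses of the RNA samples are not given in the labels.

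Only comparisons over several libraries allowed a test, by edgeR's quasi-likelihood method with Benjamini-Hochberg adjustment over all genes. Against untreated cells the 4 treated libraries gave 0 of the 300 genes an adjusted p under 0.05, beside 4 of all genes tested (0.0227%). At an unadjusted p under 0.05 there were 28 of the 300 (9.33%), beside 2.71% of all genes. Gm52303 had a log2 fold change of 1.67 ± 0.348 (SE) and an adjusted p of 0.999, and it was higher in 4 of 4 treated libraries. That count was fixed by the choice of the gene, which was named for being higher in every treatment. In untreated cells the gene also lay below the CPM threshold of the group, so its rise was favoured by that choice too. The untreated side was 1 library in this test and its alternatives. Their p-values therefore cannot tell a treatment from that library, which is assumed to vary as the treated ones do. DESeq2 called 2 of the group, beside 18 of all genes with an adjusted p (0.111%). These were Gm52303 (1.66, SE 0.356, adjusted p = 0.00479) and Gm51671 (1.48, SE 0.346, adjusted p = 0.0203). Without the BLA-A library edgeR called 8, all higher, beside 44 of all genes (0.252%), with Gm51785 at 1.44 (SE 0.178, adjusted p = 0.0164) the lowest p among them. The others were Gm51671, Gm52303, Gm29901, Gm32262, Gm12223, Gm19417 and Gm30106, named after their values were seen.

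Of the 2 nanoparticle libraries against the 2 extract libraries, edgeR gave 0 of the 300 genes and 0% of 17030 genes tested an adjusted p under 0.05, and DESeq2 gave 0 of the 300 beside 0.159% of all genes. At an unadjusted p under 0.05 edgeR had 29 (9.67%), beside 6.38% of all genes. Without a filter on low counts 21 of the 300 were called, beside 692 of 28706 genes (2.41%), and the cause was not tested.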

How the data were processed

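RNA-seq libraries of 4T1 cells in 5 conditions were examined. The authors deposited a table of raw counts with 40402 genes and 15 columns. After enzymatic removal of ribosomal RNA, their reads were aligned by STAR to GRCm39, and OmicsBox counted unique reads on whole RefSeq genes, forward strand. Tables of the authors' own comparisons (fold changes, p-values and gene set scores) were not used.

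The 3 columns of each condition had a chi-square per degree of freedom of 0.0951 to 0.475 (genes averaging 10 counts or more), below the limit of 1.5, and their mean served as 1 library. Intervals and floors therefore cover counting error only, and 3 counts correspond to at most 0.117 CPM. A gene was tested if any library reached 1 CPM, which left 17594. TMM scaling came from edgeR 4.0.16 (R 4.3.3), and fold changes are log2 of CPM plus 0.5. Both tests used rounded library means in edgeR's quasi-likelihood test, with DESeq2 1.42.0 as an alternative. The spread in them comes from differences between treatments. The test code was checked on simulated counts.

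Symbols were matched to GENCODE M39 (GRCm39) and to RefSeq tables (GRCm38.p6). Partners are the opposite-strand genes with the longest overlap. Sequence matches used blastn 2.17.0+. The genes and lists were chosen with earlier results of these data known. Named genes are the 10 highest, the 3 largest rises and falls per treatment past the fold, genes past it in all 4 treatments, those called by a test, those beside the threshold, the 5 with the smallest range, and their overlapping genes. Exceptions are marked where they stand, and some overlapping genes are not reported here. Alternatives covered scaling, filters, pseudocounts, leaving out same-numbered columns, the threshold of 20 CPM and overlap. The columns carry numbers 1 to 3, but same-numbered columns did not deviate together (mean correlation -0.000177 over 30 pairs), so they were not treated as paired.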

Additional observations from a re-analysis of the deposited data

Results flagged for a closer look

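2 genes had nanoparticle-to-extract differences of opposite sign with the 2 berries, each with log2 fold changes over 1 in absolute value. Both entered the group only through their level in the BLU-A library, so their high value there was fixed by the choice of genes. Gm29677 had a log2 fold change of -2.45 for BLA-A against BLA and 8.17 for BLU-A against BLU. Gm41095 had -1.18 for BLA-A against BLA and 9.68 for BLU-A against BLU. Each side is 1 library against 1 library, so the difference between berries was not tested. The lower value of Gm41095 rests on 8 counts in BLA-A and 39 in BLA.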

How the results depend on the processing

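With another CPM threshold, counts of genes past the fold mostly followed the size of the group. At a threshold of 10 CPM (568 genes) there were 98 in BLA, 120 in BLA-A, 68 in BLU, 38 in BLU-A, 172 for BLA-A against BLA and 5 for BLU-A against BLU. At 50 CPM (100 genes) there were 13, 20, 12 and 5 against untreated cells and 26 for BLA-A against BLA. Among the 16 genes that overlap no other there were 0, 4 (25%), 0 and 0, then 6 (37.5%) for BLA-A against BLA and 0 for BLU-A against BLU. In the whole group the shares were 16.3% in BLA, 19.3% in BLA-A, 12% in BLU and 6% in BLU-A, and 27.3% for BLA-A against BLA. The shares thus moved in this small set. A pseudocount of 5 CPM gave 32 in BLA and 8 in BLU-A. Background shares at these thresholds and this pseudocount are not given here, so the counts describe the group alone. Requiring 1 CPM in every library gave 0 for BLU-A against BLU, since Gm41095 and Gm29677 were then removed.

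Median log2 fold changes were small and several changed sign. In BLA-A the median was -0.121 with total counts, -0.017 with 1 CPM in every library, -0.024 at 50 CPM and -0.467 in genes overlapping no other. It was 0.201 with Gm26917 left out and 0.181 with no filter. At 50 CPM it was 0.021 for BLA, -0.053 for BLU and -0.057 for BLU-A, and in genes overlapping no other 0.289, 0.178 and -0.093. The cause was not tested.

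Against untreated cells, which are 1 library, DESeq2 called 2 genes and edgeR without the BLA-A library 8, beside 18 and 44 of all genes. Leaving out the BLA, BLU or BLU-A library called 0 each. For nanoparticles against extracts, no filter gave 21, beside 692 of all genes. With the 15 columns as separate samples the counts in the 2 tests were 89 and 167, beside 21.1% and 44.8% of all genes. With a replicate block they were 76 and 141, beside 15.2% and 34.9%. The spread between the 3 columns of a condition is below sampling noise, so they add no independent libraries. Spread in these tests also includes differences between treatments, with each library counted 3 times. The column numbers do not pair the columns. The rule with 20 CPM in each library found 176 genes. The columns numbered 1, then 2, then 3 were left out of every condition at once. This gave 48 to 52 genes past the fold in BLA, 57 to 58 in BLA-A, 35 to 36 in BLU and 18 to 19 in BLU-A. It gave 80 to 82 for BLA-A against BLA and 2 for BLU-A against BLU.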
